A study of Macaca mulatta with 27 samples.

Results

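The 8 genes described here encode the main writers and erasers of DNA methylation, namely DNMT1, UHRF1, DNMT3A, DNMT3B, TET1, TET2, TET3, and TDG. They were taken by symbol as a set of known function, with earlier results of these data known, and all 8 were found among the 17967 gene symbols counted in each library. Methyl groups are placed on cytosines that precede a guanine by DNA methyltransferases. DNMT1 copies the mark onto the new strand after replication with the help of UHRF1, which recognizes hemimethylated DNA, whereas DNMT3A and DNMT3B methylate sites anew. TET1, TET2, and TET3 oxidize methylcytosine, and the glycosylase TDG excises the most oxidized forms, which are then replaced through base excision repair. In mammals, the mark is low in the early epiblast and is regained as the embryo implants, so the transcripts of these enzymes are often read along with the naive and primed states of pluripotency.

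RNA was sequenced from 27 libraries of rhesus macaque embryonic stem cells, 6 of primed cells and 3 of cells cultured with each of 7 protocols for conversion to the naive state. Each protocol was set against the same 6 primed libraries, and the question asked here was how transcript levels of the DNA methylation machinery differed after each conversion. All cells came from LyonES-tGFP-(S3), a clonal line that carries a tauGFP transgene driven by the CAG promoter and a lentiviral STAT3-ER T2, so the primed controls carry both transgenes too and the study rests on 1 clone. Tamoxifen, the ligand of the ER T2 moiety, was part of TL2i and TL-CDK8/19i only, the other protocols being E-NHSM, NHSM-v, LCDM (EPS), t2iLGöY, and 4i/L/b. TL2i joins tamoxifen and LIF with inhibitors of MEK and GSK3β, and in TL-CDK8/19i, written TL-CDK8i in the labels, the compound CNIO-47799, an inhibitor of CDK8 and CDK19, takes the place of these inhibitors. Primed cells were passaged mechanically in clumps and reprogrammed cells as single cells, a difference that cannot be told apart from that between the primed and reprogrammed groups. The labels do not say whether libraries of a group came from separate cultures, so p-values measure the spread between these libraries only, which may be technical.

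Total counts ranged from 7111886 to 20760914 per library, with a median of 12201171, and the 36 pairs of libraries of the same group all differed beyond the noise of counting (chi-square per gene between 3.98 and 29.8). The labelled cell type was checked on 8 pluripotency genes (POU5F1, NANOG, SOX2, LIN28A, TDGF1, DPPA4, L1TD1, and ZFP42), whose summed level was 3939 to 4410 CPM (the read count scaled by library size and TMM factor) in primed and 3802 to 4032 CPM in E-NHSM libraries. It was 1148 to 1616 CPM in TL-CDK8/19i, 397 to 466 in TL2i, 339 to 346 in LCDM (EPS), 165 to 167 in NHSM-v, 139 to 148 in 4i/L/b, and 133 to 141 CPM in t2iLGöY libraries. NANOG held no more than 3 counts in any library of LCDM (EPS), t2iLGöY, NHSM-v, and 4i/L/b, so a defining marker of the labelled cell type was at the floor there. POU5F1 averaged 1185 CPM in the primed group. Its mean was 6.43 CPM after TL2i, 3.09 after LCDM (EPS), 1.17 after t2iLGöY, 0.905 after 4i/L/b, and 0.296 after NHSM-v. It was 498 CPM after TL-CDK8/19i and 1363 CPM after E-NHSM. NANOG averaged 0.316 CPM after TL2i, from 134 CPM in the primed group. Most of the sum left after LCDM (EPS) was SOX2, at 322 CPM (273 in the primed group). After TL2i most was LIN28A (271 CPM) and SOX2 (89.0 CPM). Markers of other lineages moved as well. The summed level of 8 fibroblast genes was 1163 to 2372 CPM in primed libraries. It was above all of these in 4i/L/b (11681 to 15294), TL-CDK8/19i (8573 to 11101), NHSM-v (8007 to 8593), TL2i (2947 to 5776), and t2iLGöY (3434 to 4019), and below all of them in LCDM (EPS) (762.4 to 984.9) and E-NHSM (406 to 450). COL1A1 made up most of the fibroblast sum in primed (a mean of 1290.5 CPM) and t2iLGöY libraries (3135 CPM). Of the fibroblast genes tested in t2iLGöY, 3 rose and 2 fell, COL1A2 (309 CPM against 458) and THY1 (13.6 against 74.3). DCN and LUM were at the floor there. In LCDM (EPS) 2 rose, DCN (6.98 CPM against 0) and LUM (3.33 against 0), and 4 fell. The summed level of 8 neural genes was 2386 to 2639 CPM in primed libraries, between 2803 and 4213 in 4 protocols, and 6176 to 6437 in LCDM (EPS). It was below all primed libraries in TL-CDK8/19i (2035 to 2131) and E-NHSM (1312 to 1459). In primed libraries NES made up most of this sum, at a mean of 2437 CPM, and NES was at 1876 CPM in TL-CDK8/19i. DCX rose from a mean of 2.48 CPM in primed to 630 in t2iLGöY, 835 in LCDM (EPS), and 27.7 in TL-CDK8/19i. In the same groups TUBB3 rose from 10.3 to 678, 690, and 106 CPM. TUBB3 was also higher in NHSM-v (296 CPM), 4i/L/b (148), and TL2i (84.3). The median log2 fold change of the neural genes tested was 7.23 in LCDM (EPS), 7.01 in t2iLGöY, 4.93 in NHSM-v, 3.80 in 4i/L/b, and 3.04 in TL2i. It was -0.09 in TL-CDK8/19i and -0.35 in E-NHSM. Trophoblast genes summed to 3.66 to 14.6 CPM in primed libraries. Their sum was above these in TL-CDK8/19i (147 to 232), LCDM (EPS) (169.7 to 186), and t2iLGöY (112 to 163). It was also higher in TL2i (102 to 108) and NHSM-v (20.5 to 26.1), and overlapped in E-NHSM and 4i/L/b. Endoderm genes summed to at most 29.8 CPM in primed and 122 to 144 CPM in LCDM (EPS) libraries. Their sum was below all primed libraries in E-NHSM and above all in the other protocols. Mesoderm genes summed to at most 108 CPM in primed and 131 in TL-CDK8/19i libraries, which overlapped. Other protocols lay below all primed libraries. The part of these cells in the levels given below was not tested, and in bulk RNA fewer cells with a transcript and less of it per cell cannot be told apart.

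Between 5 and 7 of the 8 genes were called in each comparison with primed cells by edgeR's quasi-likelihood test, at a Benjamini-Hochberg adjusted p under 0.05 over all genes tested. With E-NHSM, 2 of the 8 rose and 3 fell, where 26.2% of 13304 genes were called, 11.1% higher and 15.1% lower. For NHSM-v, 2 rose and 4 fell (58.6% of 13268 genes, 28% and 30.6%), and for 4i/L/b, 1 rose and 5 fell (55.6% of 13558, 26.6% and 29%). In TL2i cells 1 rose and 4 fell (50.7% of 13808, 25.6% and 25.2%), and in t2iLGöY cells 1 rose and 5 fell (54.3% of 13662, 27.1% and 27.2%). After LCDM (EPS), 3 rose and 4 fell (57.1% of 13625, 28.2% and 28.9%), and after TL-CDK8/19i, 0 rose and 5 fell (46.1% of 13359, 22.3% and 23.8%). Given these shares of all genes, the number called among the 8 says little by itself, and the accounts below turn on sizes and directions. The median absolute log2 fold change of the 8 genes was 0.69 in E-NHSM against 0.38 over all genes tested, 1.13 against 0.74 in LCDM (EPS), and 0.48 against 0.56 in TL-CDK8/19i. It was 1.00 against 0.79 in NHSM-v, 1.04 against 0.71 in 4i/L/b, 0.79 against 0.63 in TL2i, and 0.86 against 0.75 in t2iLGöY. Libraries of a protocol lay wholly above or below the 6 primed libraries for 4 of the 8 genes in E-NHSM (29.1% of all genes), 6 in NHSM-v (55.6%), 5 in 4i/L/b (55.5%), 5 in TL2i (50.8%), 6 in t2iLGöY (51.7%), 7 in LCDM (EPS) (55.4%), and 4 in TL-CDK8/19i (46%). Over the 7 comparisons, 30 of the 56 tests were called lower, 10 higher, and 16 were not called.

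**Figure D1:**
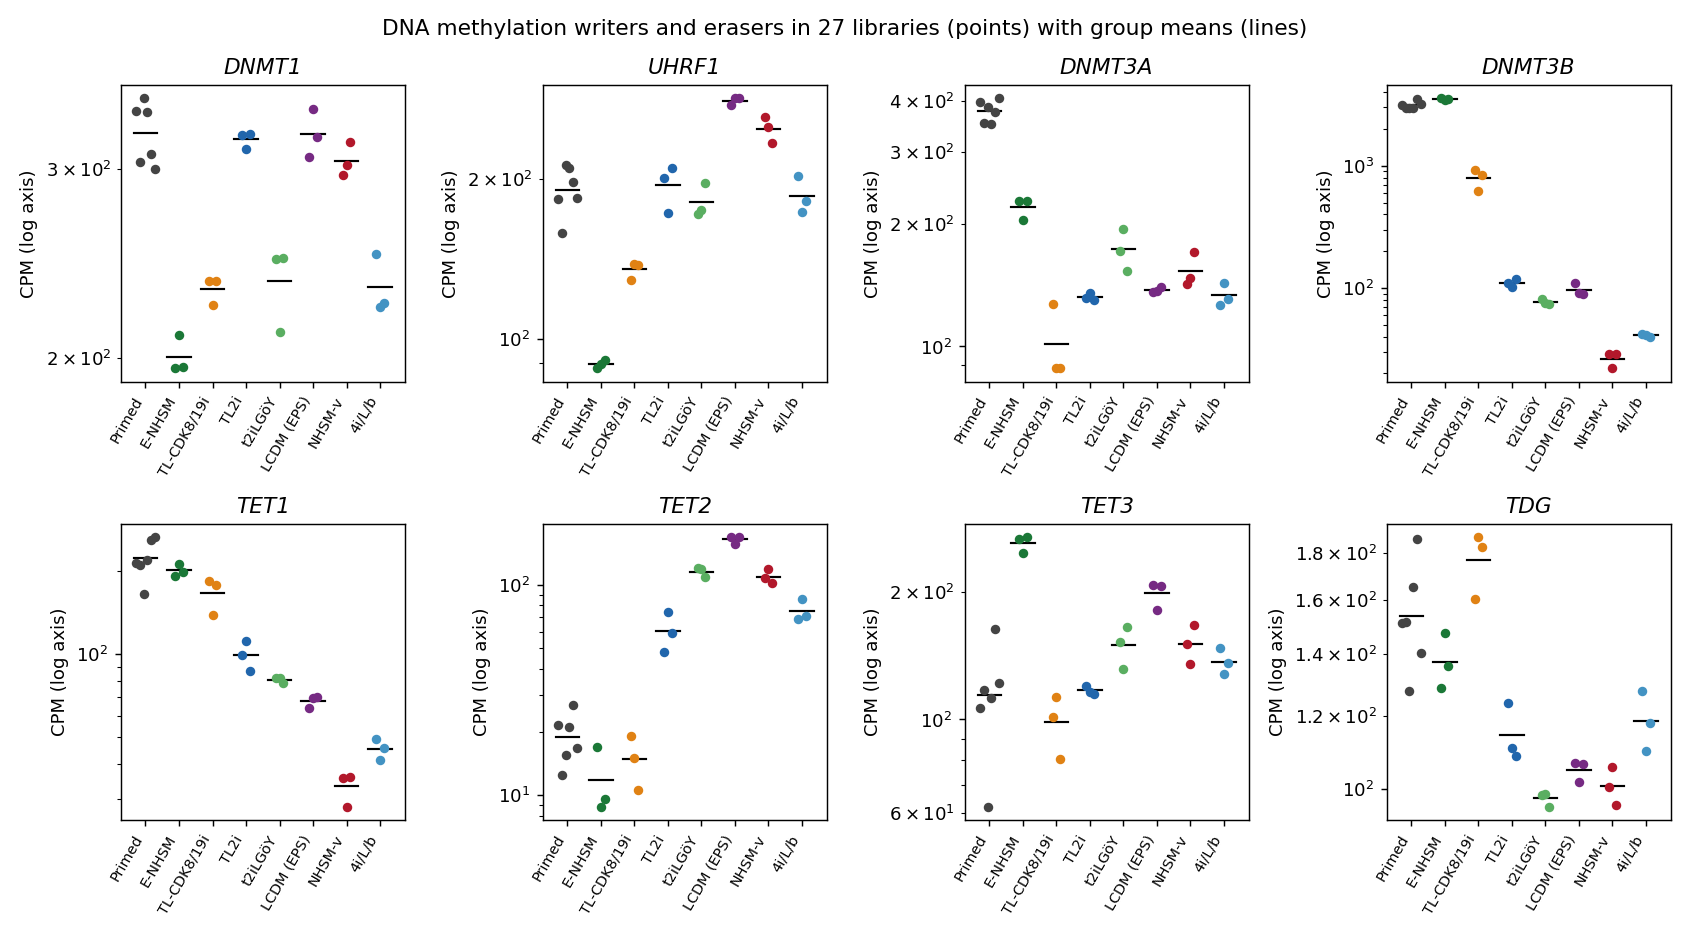
CPM of each of the 8 genes (log axis, read counts scaled by library size and TMM factor) in the 27 libraries, with a point for each library and a line at the mean of each group. DNMT3B spans from 22.1 CPM in an NHSM-v library to 3553 CPM in an E-NHSM library, whereas DNMT1 stays between 195 and 349 CPM.

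DNMT1 and UHRF1, the maintenance pair, did not move together in every protocol. DNMT1 was at 300.0 CPM in the lowest, 324 at the median, and 349 in the highest of the 6 primed libraries. E-NHSM libraries had 195, 210, and 196 CPM, those of TL-CDK8/19i 236, 224, and 236, those of 4i/L/b 250, 223, and 225, and those of t2iLGöY 247, 211, and 248. All 12 of these libraries lay below every primed library. DNMT1 fell by 0.69 ± 0.08 on the log2 scale in E-NHSM (SE; edgeR adjusted p = 6.7e-06), by 0.52 ± 0.09 in 4i/L/b (0.00014), by 0.51 ± 0.08 in TL-CDK8/19i (0.00019), and by 0.42 ± 0.09 in t2iLGöY (0.0011). Libraries of TL2i (322, 313, and 323 CPM), LCDM (EPS) (308, 341, and 321), and NHSM-v (296, 302, and 317) overlapped with the primed range, and DNMT1 was not called there, at log2 fold changes of -0.02, 0.04, and -0.13.

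UHRF1, the reader that brings DNMT1 to hemimethylated sites, ranged from 158 to 212 CPM in primed libraries, with a median of 190.2. It was at 88.1, 89.6, and 91.1 CPM in E-NHSM libraries and at 129, 138, and 138 CPM in those of TL-CDK8/19i. Both groups lay below every primed library, with a log2 fold change of -1.09 ± 0.11 (edgeR adjusted p = 5.4e-07) and -0.53 ± 0.10 (0.00086). NHSM-v libraries had 261, 250.3, and 233 CPM and LCDM (EPS) libraries 275, 283, and 283 CPM. These lay above every primed library, and UHRF1 rose by 0.33 ± 0.10 (edgeR adjusted p = 0.0089) and by 0.59 ± 0.09 on the log2 scale (8.2e-05). In 4i/L/b, TL2i, and t2iLGöY, at means of 186, 194, and 181 CPM, the libraries overlapped with primed ones and UHRF1 was not called. The log2 ratio of UHRF1 to DNMT1, relative to primed libraries, was above all of them in t2iLGöY (0.39), 4i/L/b (0.44), NHSM-v (0.47), and LCDM (EPS) (0.56), and below all of them in E-NHSM (-0.39 ± 0.06, SD, n = 3).

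Because DNMT1 and UHRF1 are known to be transcribed mostly in S phase, 15 genes of DNA replication were read beside them. Their mean log2 level relative to primed cells was below 0 in every protocol, at -0.32 ± 0.10 in TL-CDK8/19i (SD, n = 3), -0.36 ± 0.02 in E-NHSM, -0.41 ± 0.14 in TL2i, -0.49 ± 0.03 in LCDM (EPS), -0.76 ± 0.06 in 4i/L/b, -0.89 ± 0.03 in NHSM-v, and -0.98 ± 0.08 in t2iLGöY. Of the 15, between 9 and 14 fell in each comparison, where 15.1% to 30.6% of all genes did, and 0 to 2 rose. MCM3 and MCM4, subunits of the replicative helicase, were lower in all 7 and CDC6, which loads that helicase, in 6. UHRF1 was higher than primed in NHSM-v and LCDM (EPS), where 12 and 9 of the replication genes fell. It was lower in E-NHSM and TL-CDK8/19i, where 11 and 9 fell. DNMT1 was lower in E-NHSM, 4i/L/b, TL-CDK8/19i, and t2iLGöY, where 11, 12, 9, and 14 fell. It was not called in TL2i, LCDM (EPS), and NHSM-v, where 10, 9, and 12 fell. The part of S phase in the levels of DNMT1 and UHRF1 was not tested.

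Of the de novo enzymes, DNMT3A fell with every protocol and DNMT3B with 6, and DNMT3B spanned the widest range of log2 fold changes of the 8 genes, 7.10. DNMT3A was lower than in primed cells with all 7 protocols. Primed libraries ranged from 350.2 to 405 CPM with a median of 381, and the highest value in any of the 21 other libraries was 227 CPM. E-NHSM libraries had 227, 204, and 227 CPM (log2 fold change -0.78 ± 0.08, edgeR adjusted p = 9.7e-07), and those of TL-CDK8/19i had 127, 88.7, and 88.5 CPM (-1.93 ± 0.12, 2.3e-08). The groups did not overlap. The remaining 5 protocols lay between these extremes, from -1.09 in t2iLGöY to -1.55 in 4i/L/b, with edgeR adjusted p from 2.4e-09 to 1.5e-07.

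DNMT3B, which is abundant in primed pluripotent cells, was lower in 6 protocols and not in E-NHSM. It ranged from 2939 to 3485 CPM in primed libraries, with a median of 3056. NHSM-v libraries had 28.7, 22.1, and 28.6 CPM, 4i/L/b libraries 42.0, 41.2, and 39.9, and t2iLGöY libraries 80.8, 74.7, and 73.8 CPM. Those of LCDM (EPS) had 110.1, 90.6, and 89.7 CPM and those of TL2i 109.6, 103, and 118 CPM. These 15 libraries lay far below the primed range, with 210 reads in the lowest, well over the floor of 3 counts. By edgeR, the level was 121-fold lower than primed in NHSM-v (log2 fold change -6.92 ± 0.11, adjusted p = 1.9e-15). After 4i/L/b it was 78.4-fold lower and after t2iLGöY 39.8-fold lower, and the folds were 31.3 for LCDM (EPS) and 28.3 for TL2i. In each of these comparisons the change exceeded that of at least 95.3% of all genes tested. TL-CDK8/19i libraries, at 927, 617, and 838 CPM, lay between these and the primed libraries, 4.01-fold lower than the latter (log2 fold change -2.01 ± 0.11, adjusted p = 5.6e-09).

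In E-NHSM, DNMT3B was at 3553, 3457, and 3537 CPM. These values overlapped with the highest primed library, and the rise of 0.18 ± 0.05 on the log2 scale was called (edgeR adjusted p = 0.009) but not when all 8 groups were fitted together (adjusted p = 0.11). As DNMT3A fell there, the ratio of DNMT3B to DNMT3A was 0.96 ± 0.07 higher on the log2 scale than in primed libraries (SD, n = 3), with no overlap. In TL-CDK8/19i the ratio moved by -0.08 ± 0.24 and overlapped with primed libraries, both de novo genes having fallen by about the same factor. For the other 5 protocols it was between -3.31 in TL2i and -5.58 in NHSM-v. DNMT3L, the cofactor of both enzymes without catalytic activity of its own, held at most 14 counts in any library and was not tested.

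**Figure D2:**
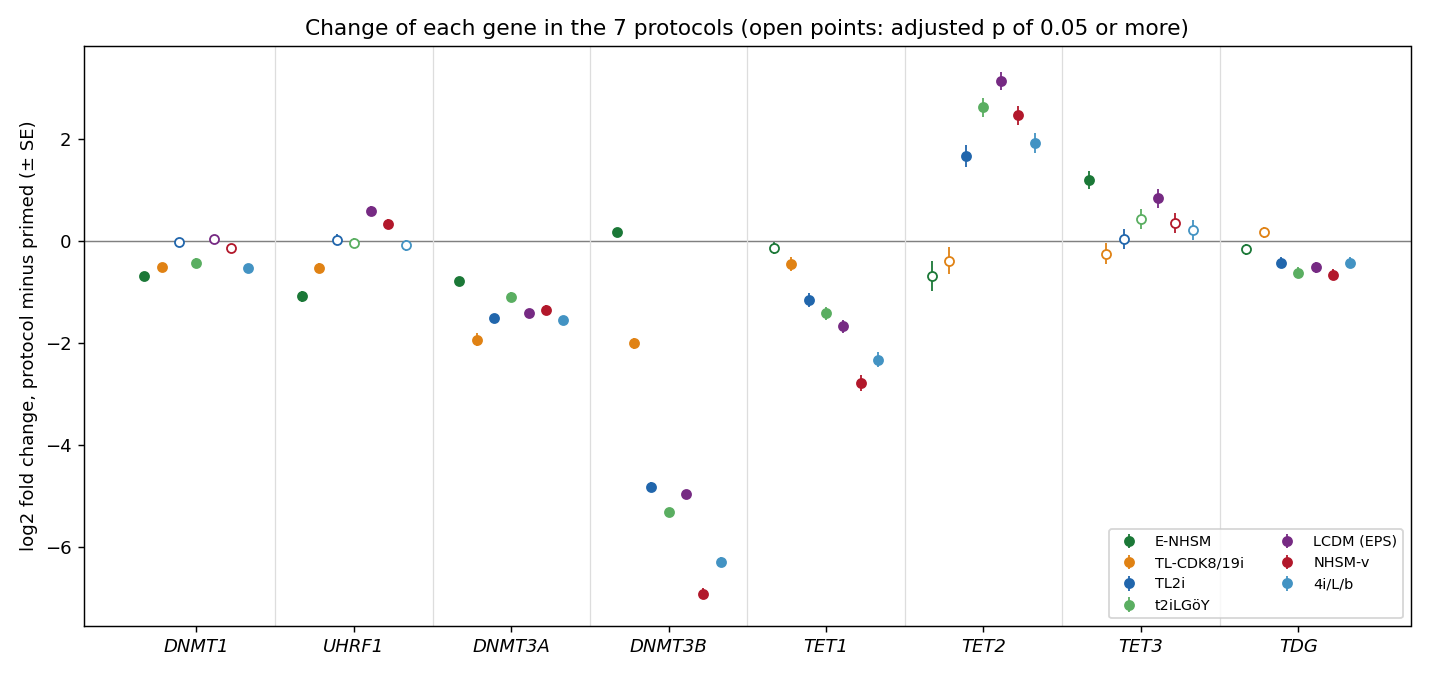
Log2 fold change of each gene in each protocol against the 6 primed libraries, from edgeR, with the SE as bars. Filled points were called at an adjusted p under 0.05 and open points were not. DNMT3A is filled and below 0 in all 7, DNMT3B reaches -6.92, and TET1 and TET2 part in opposite directions in 5 protocols.

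Among the erasers, TET1 fell and TET2 rose in the same 5 protocols, and TET3 was higher in 2. TET1, the main TET enzyme of mouse embryonic stem cells along with TET2, ranged from 164 to 265 CPM in primed libraries, with a median of 216. NHSM-v libraries had 35.8, 28.1, and 35.98 CPM (log2 fold change -2.78 ± 0.15, edgeR adjusted p = 8.2e-10) and 4i/L/b libraries 49.2, 41.6, and 45.9 (-2.33 ± 0.14, 1.2e-08). LCDM (EPS) had 63.9, 69.2, and 70.0 CPM (-1.67 ± 0.13, 9.9e-08), t2iLGöY had 82.1, 81.8, and 78.9 (-1.42 ± 0.13, 3e-07), and TL2i had 99.0, 111, and 87.3 (-1.16 ± 0.14, 9.7e-06). None of these 15 libraries reached the lowest primed one.

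TET1 was nearer to the primed level in the remaining protocols, and it was called lower in TL-CDK8/19i and not in E-NHSM. TL-CDK8/19i libraries had 183, 138, and 178 CPM, which overlapped with the primed range. The fall of 0.44 ± 0.13 on the log2 scale was called by edgeR (adjusted p = 0.014), but it was 0.27 with an adjusted p of 0.14 against the primed columns of letter J only, and 0.33 with an adjusted p of 0.10 without TL-CDK8/19i replicate 2. E-NHSM libraries, at 191, 213, and 198 CPM, overlapped too, and TET1 was not called (log2 fold change -0.14 ± 0.11, edgeR adjusted p = 0.41), although it was lower than in the primed columns of letter K (-0.28, adjusted p = 0.014).

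TET2, which lacks the DNA-binding CXXC domain of TET1 and TET3, was in primed libraries at 12.5 to 26.8 CPM with a median of 18.9. LCDM (EPS) libraries had 168, 156, and 169 CPM, t2iLGöY libraries 120, 118, and 109, and NHSM-v libraries 107, 119, and 102 CPM. Those of 4i/L/b had 68.8, 85.5, and 71.0 CPM and those of TL2i 48.2, 74.5, and 59.4 CPM. Every one of the 15 lay above the highest primed library. The rise was 8.83-fold in LCDM (EPS) (log2 fold change 3.14 ± 0.17, edgeR adjusted p = 2.6e-09) and 3.19-fold in TL2i (1.68 ± 0.21, 1.7e-05), with 6.21-fold after t2iLGöY, 5.56-fold after NHSM-v, and 3.81-fold after 4i/L/b. The log2 ratio of TET2 to TET1 was thus 2.84 ± 0.27 above that of primed libraries in TL2i and 5.28 ± 0.31 in NHSM-v (SD, n = 3). With E-NHSM (17.0, 8.82, and 9.58 CPM) and TL-CDK8/19i (19.1, 15.0, and 10.7 CPM) the libraries overlapped with primed ones and TET2 was not called, with adjusted p = 0.093 and 0.26. In E-NHSM the value of -0.68 passed the threshold without E-NHSM replicate 1 (-1.04, adjusted p = 0.033), against the primed columns of letter K only (-0.84, 0.024), and with all 8 groups in one fit (-0.68, 0.0084).

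TET3, the enzyme that oxidizes the paternal genome in the zygote, varied among the primed libraries from 62.1 to 164 CPM with a median of 115. It was at 268, 248, and 270.3 CPM in E-NHSM and at 208, 182, and 207 CPM in LCDM (EPS). Both groups lay above the primed range, with a rise of 1.203 ± 0.17 on the log2 scale in E-NHSM (edgeR adjusted p = 3.3e-05) and 0.84 ± 0.19 in LCDM (EPS) (0.0016). Elsewhere libraries overlapped with primed ones and TET3 was not called, at 0.43 in t2iLGöY (adjusted p = 0.071), 0.36 in NHSM-v (0.12), 0.22 in 4i/L/b (0.36), 0.04 in TL2i (0.87), and -0.24 in TL-CDK8/19i (0.36). Some of these calls changed with the primed libraries used, and with other settings given further below. Without the primed library K2, the highest of the 6, TET3 was called higher in t2iLGöY (0.54, adjusted p = 0.018) and in NHSM-v (0.53, 0.017). Against the primed columns of letter J it was called in the same protocols, at 0.66 and 0.63, and against those of letter K it was called lower in TL-CDK8/19i (-0.44, adjusted p = 0.03).

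TDG, which removes the oxidized bases that TET enzymes leave, was lower in 5 protocols. Primed libraries ranged from 128 to 186 CPM with a median of 151. NHSM-v libraries had 100.5, 106, and 96.1 CPM (log2 fold change -0.66 ± 0.11, edgeR adjusted p = 0.00013), t2iLGöY libraries 98.6, 98.8, and 95.6 (-0.62 ± 0.11, 0.00026), and LCDM (EPS) libraries 107, 102, and 106 (-0.51 ± 0.11, 0.001). These lay below every primed library, as did those of TL2i at 124, 111, and 109 CPM (-0.42 ± 0.11, adjusted p = 0.0058), whereas those of 4i/L/b, at 128, 110.0, and 118 CPM, reached the lowest primed library (-0.42 ± 0.11, 0.0048). In E-NHSM and TL-CDK8/19i, at means of 137 and 177 CPM, TDG was not called.

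The balance of writers and erasers was measured in each library as the mean log2 CPM of DNMT1, DNMT3A, and DNMT3B minus that of TET1, TET2, and TET3, less the mean of the primed libraries. A negative value means a lower mean log2 level of the DNMT genes relative to the TET genes than in primed cells. Each gene has the same weight, although TET2, for example, took only 5.41% of the TET reads in primed libraries. The balance and its terms therefore do not measure summed transcripts. The balance is a description over chosen genes and carries no test. Primed libraries spread from -0.42 in K2, the primed library with the most counts, to 0.52 in J3, the library with the fewest, with an SD of 0.31, and the part of depth in that spread was not tested. The balance was below every primed library with all 7 protocols. It was -0.57 ± 0.15 in E-NHSM (SD, n = 3) and -1.16 ± 0.19 in TL-CDK8/19i. In TL2i it reached -2.33 ± 0.17, in 4i/L/b -2.76 ± 0.02, in NHSM-v -2.85 ± 0.05, in t2iLGöY -2.86 ± 0.05, and in LCDM (EPS) -2.92 ± 0.07, so that the last 4 differed from each other by less than 0.2.

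Protocols of like balance differed in its terms. The DNMT term, the mean of the 3 writers relative to primed libraries, was -2.75 ± 0.11 in NHSM-v and -2.74 ± 0.03 in 4i/L/b, where the TET term was 0.10 ± 0.08 and 0.02 ± 0.03 and overlapped with primed libraries. TET1 was lower and TET2 higher there. In LCDM (EPS) and t2iLGöY the DNMT term was -2.15 ± 0.03 and -2.31 ± 0.05, and the TET term lay above every primed library at 0.77 ± 0.05 and 0.55 ± 0.04. In TL2i the terms were -2.12 ± 0.03 and 0.21 ± 0.14. With TL-CDK8/19i both terms were below 0, at -1.46 ± 0.20 and -0.31 ± 0.20, the TET term within the primed range, and with E-NHSM they were -0.43 ± 0.02 and 0.14 ± 0.16.

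**Figure D3:**
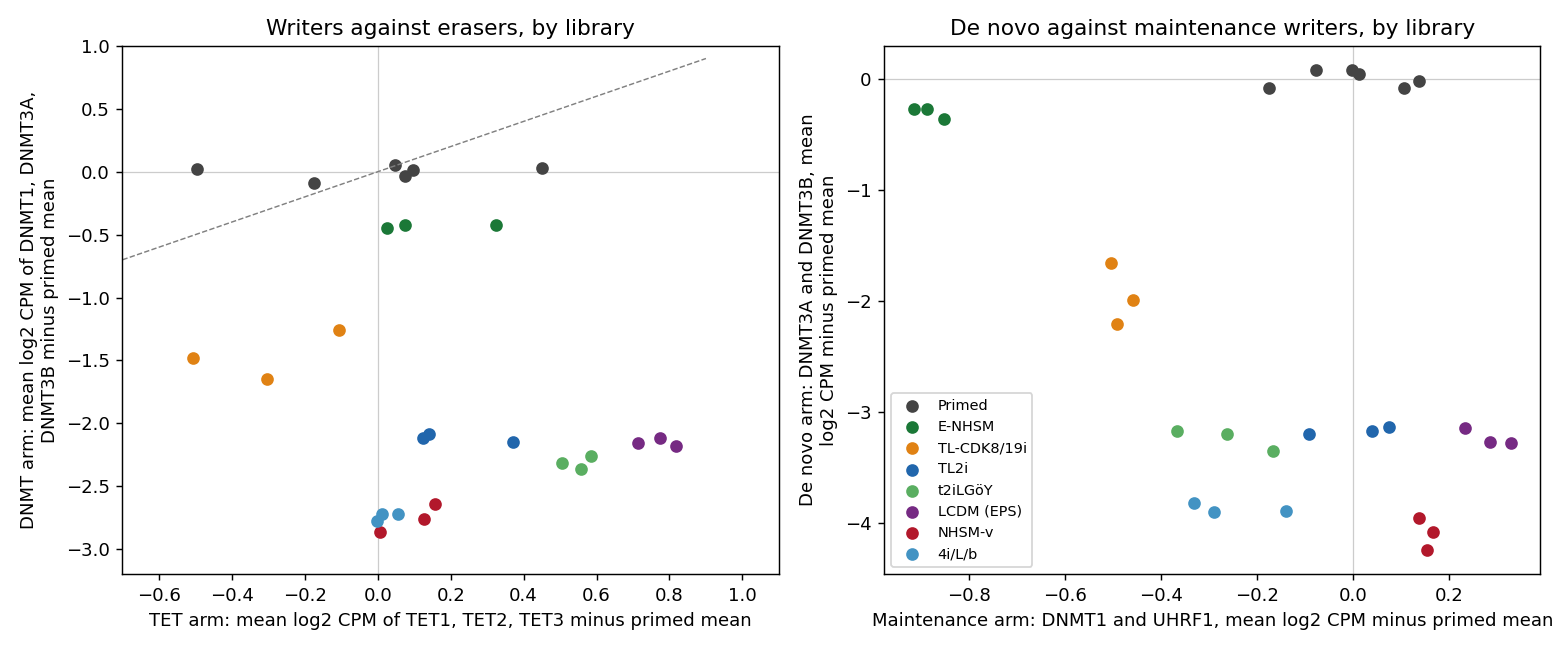
Left, mean log2 CPM of the 3 DNMT genes against that of the 3 TET genes, and right, mean log2 CPM of DNMT3A and DNMT3B against that of DNMT1 and UHRF1, each relative to the mean of the primed libraries, with a point for each of the 27 libraries. The dashed line marks an unchanged balance. In the right panel E-NHSM libraries sit near -0.88 on the maintenance axis and -0.30 on the de novo axis, and LCDM (EPS) libraries near 0.28 and -3.23.

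DNMT3B carried much of the balance in 5 protocols. Without it, the balance was between -0.79 in NHSM-v and -1.50 in LCDM (EPS), which places E-NHSM (-0.88), TL-CDK8/19i (-0.89), TL2i (-0.97), 4i/L/b (-1.01), and t2iLGöY (-1.35) within the same range, and all 7 were still below every primed library. When DNMT1 and UHRF1 took the place of the DNMT genes, the order of the protocols changed. E-NHSM then had the lowest value, -1.03 ± 0.19, followed by t2iLGöY with -0.81 ± 0.08, and both lay below every primed library. The other 5 overlapped with primed libraries, from -0.49 ± 0.09 in LCDM (EPS) to 0.06 ± 0.09 in NHSM-v.

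The mean of DNMT1 and UHRF1 was -0.88 ± 0.03 in E-NHSM libraries and -0.48 ± 0.02 in TL-CDK8/19i, both below every primed library, and 0.28 ± 0.05 in LCDM (EPS), above every one. In the other 4 protocols, from -0.26 ± 0.10 in t2iLGöY to 0.15 ± 0.02 in NHSM-v, it overlapped with the primed range. The mean of DNMT3A and DNMT3B was -0.30 ± 0.05 in E-NHSM libraries and -1.95 ± 0.28 in TL-CDK8/19i, and from -3.17 in TL2i to -4.09 in NHSM-v in the other 5. By group means, E-NHSM had the lowest maintenance term and the highest de novo term of the 7 protocols.

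Reads on the 3 DNMT genes changed hands in the same 5 protocols. DNMT3B took 81.6% ± 1.199 of these reads in primed (SD, n = 6), 89.3% ± 0.03 in E-NHSM libraries, and 70.1% ± 3.24 in TL-CDK8/19i libraries. Its share was 19.5% ± 0.99 in TL2i and 17.4% ± 2.18 in LCDM (EPS), and it was lower still after t2iLGöY (15.8% ± 0.36), 4i/L/b (10.1% ± 0.04), and NHSM-v (5.46% ± 0.74). In these 5 protocols DNMT1 became the most counted of the 3, with 48.6% to 63.0% of the reads by group means. Shares of reads depend on transcript length and are compared here between libraries only. For the TET genes, TET1 took 62.9% ± 3.55 of the reads in primed libraries and 59.4% ± 7.14 in TL-CDK8/19i, and 42.3% ± 2.66 in E-NHSM, where TET3 took 55.2% ± 2.06. TET2 took 5.41% ± 1.19 in primed libraries, and 21.8% ± 3.40 in TL2i, 29.2% ± 3.93 in 4i/L/b, 33.4% ± 2.50 in t2iLGöY, 37.4% ± 4.38 in NHSM-v, and 38.1% ± 0.30 in LCDM (EPS).

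**Figure D4:**
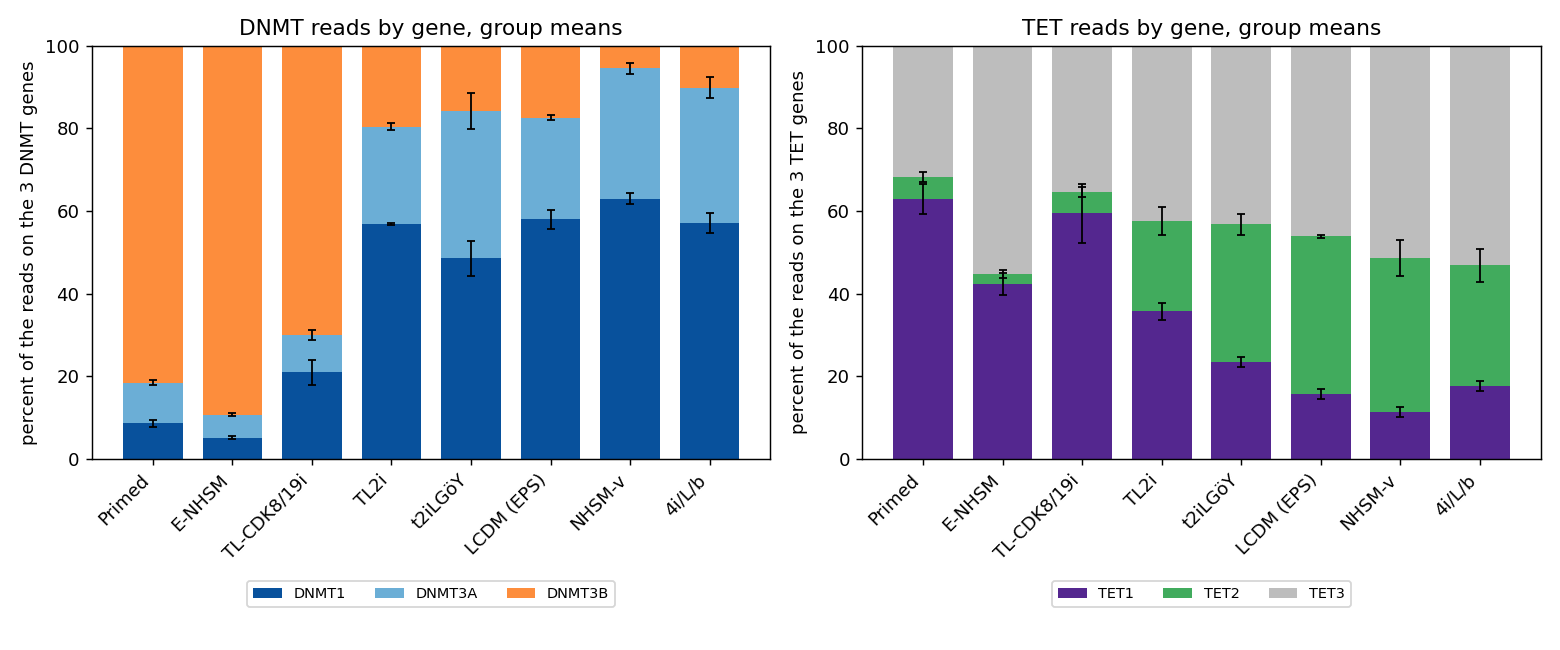
Percent of the reads on DNMT1, DNMT3A, and DNMT3B (left) and on TET1, TET2, and TET3 (right) that fell on each gene, as means of the libraries of a group, with bars for the SD of the first and second segments from the bottom. DNMT3B falls from 81.6% in primed to 5.46% in NHSM-v libraries and TET2 grows from 5.41% to 38.1% in LCDM (EPS).

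Ordering the 8 groups by level gave each gene its own sequence. For neighbours in that order, protocols were compared with each other in one edgeR fit of their 21 libraries. For DNMT3B the levels went up from NHSM-v over 4i/L/b to t2iLGöY, then over LCDM (EPS) and TL2i to TL-CDK8/19i, primed, and E-NHSM, and among neighbours no difference was called between LCDM (EPS) and TL2i alone (adjusted p = 0.19). The order of TET1 was NHSM-v, 4i/L/b, LCDM (EPS), t2iLGöY, TL2i, TL-CDK8/19i, E-NHSM, and primed, with no difference called between LCDM (EPS) and t2iLGöY (adjusted p = 0.091) or between E-NHSM and primed (0.41). For DNMT3A, TL-CDK8/19i lay lowest, and TL2i, 4i/L/b, LCDM (EPS), NHSM-v, and t2iLGöY followed without a called step between neighbours (adjusted p = 0.19 to 0.99), before E-NHSM and then primed. TDG gave a single called step, from 4i/L/b to E-NHSM (adjusted p = 0.027). Over the 21 pairs of protocols, 136 of the 168 tests of the 8 genes were called, where 26.8% to 69% of all genes were called per pair (median 53%).

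Pairs of protocols differed in how many of the 8 genes were called, each set here beside the share of all 14699 genes called in that pair. Against E-NHSM all 8 were called for NHSM-v (69%), t2iLGöY (67.3%), LCDM (EPS) (66%), 4i/L/b (65%), and TL2i (60.6%), and 7 for TL-CDK8/19i (57.8%). Against TL-CDK8/19i, 8 were called for NHSM-v (60.4%), TL2i (53%), and LCDM (EPS) (63.7%), and 7 for 4i/L/b (52.6%) and t2iLGöY (62.9%). Among the other 5 protocols, 7 were called between t2iLGöY and TL2i (50.6%), 6 between 4i/L/b and NHSM-v (39.9%), between LCDM (EPS) and 4i/L/b (48%), and between LCDM (EPS) and t2iLGöY (35.8%), and 5 between TL2i and NHSM-v (51.9%), between LCDM (EPS) and NHSM-v (54.8%), and between t2iLGöY and 4i/L/b (44.1%). The fewest were 4 between t2iLGöY and NHSM-v (49.6%) and between LCDM (EPS) and TL2i (50%), and 3 between 4i/L/b and TL2i (26.8%).

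Of the protocols, TL2i and TL-CDK8/19i both used tamoxifen and differ in their inhibitors, and all 8 genes were called between them. DNMT3B was 2.83 ± 0.11 higher on the log2 scale in TL-CDK8/19i than in TL2i (edgeR adjusted p = 9.2e-17), TET1 0.73 ± 0.11 higher (2.8e-06), and TDG 0.61 ± 0.08 higher (7.4e-07). The difference was -2.05 ± 0.20 for TET2 (edgeR adjusted p = 1.7e-09), -0.54 ± 0.08 for UHRF1, -0.48 ± 0.07 for DNMT1, -0.40 ± 0.11 for DNMT3A, and -0.27 ± 0.11 for TET3 (0.034). NHSM-v minus E-NHSM gave -7.06 ± 0.14 for DNMT3B, -2.60 ± 0.12 for TET1, 3.20 ± 0.19 for TET2, and 1.46 ± 0.08 for UHRF1. Between TL2i and 4i/L/b, DNMT3B, TET1, and DNMT1 were higher in TL2i, by 1.43 ± 0.12, 1.13 ± 0.11, and 0.47 ± 0.07.

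Within the primed group, columns of letters J and K, 3 libraries each, were compared as a measure of the spread between sets of controls. None of the 8 genes was called by edgeR at an adjusted p under 0.05 (3.73% of 12559 genes were), and 2 had an unadjusted p under 0.05. TET1 was 0.30 ± 0.11 higher in K on the log2 scale (unadjusted p = 0.016, edgeR adjusted p = 0.16) and TET3 0.43 ± 0.19 higher (0.036, adjusted p = 0.25).

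Of 11 cofactors of DNA methylation, 9 or 10 passed the filter in a comparison, and between 4 and 8 were called lower in each and 1 higher, ZBTB24 in E-NHSM (of all genes, 15.1% to 30.6% were lower and 11.1% to 28.2% higher, by comparison), with a median log2 fold change from -0.19 in E-NHSM to -0.79 in 4i/L/b, where the median of all genes tested was between -0.02 and 0.07. PRDM14, a repressor of DNMT3B in naive mouse cells, was at 278 ± 60.4 CPM in primed libraries (SD, n = 6), 94.1 ± 6.65 after E-NHSM, and 102 ± 19.2 in TL-CDK8/19i (n = 3), and its mean was no more than 0.931 CPM in any of the other 5 protocols. It was called lower in all 7, so PRDM14 and DNMT3B both fell in 6 of them. USP7, which stabilizes DNMT1 and UHRF1, was also lower in all 7, with a median log2 fold change of -0.65. HELLS, a remodeller that opens chromatin for DNA methylation, fell in 6 protocols and was not called in TL-CDK8/19i (-0.10, edgeR adjusted p = 0.45), and TRIM28, a corepressor at methylated repeats, fell in 6 and was not called in E-NHSM (-0.17, 0.11). DPPA3, which keeps UHRF1 off chromatin in the oocyte, held at most 121 counts in any library and was not called in the 2 comparisons where it passed the filter.

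Of 7 proteins that read the mark by binding methylated DNA, 4 to 6 rose and 0 fell in the 5 protocols in which TET2 rose (25.6% to 28.2% of all genes rose and 25.2% to 30.6% fell there), whereas 2 fell in E-NHSM (15.1% of all genes) and 1 rose and 1 fell in TL-CDK8/19i (22.3% and 23.8%). MBD1 rose from 72.3 ± 6.06 CPM in primed libraries to between 89.3 and 123 CPM in these 5 protocols. ZBTB38 rose in 5 protocols, with the highest mean, 159.9 ± 17.97 CPM against 12.2 ± 2.45 in primed, in TL-CDK8/19i (log2 fold change 3.68, edgeR adjusted p = 5.7e-10).

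Of 5 genes linked to TET enzymes (OGT, CXXC4, CXXC5, IDH1, and IDH2), 3 or 4 rose and 0 or 1 fell in the 5 protocols in which TET2 rose. In E-NHSM 1 rose and 3 fell, and in TL-CDK8/19i 1 rose and 2 fell. These counts are to be read against the same shares of all genes, and they do not measure TET activity. CXXC4, which binds TET2 and was once part of the same gene, was at 7.16 ± 2.45 CPM in primed libraries and rose in 6 protocols, up to 114 ± 7.09 CPM in LCDM (EPS), and fell in E-NHSM (2.36 ± 0.65 CPM, edgeR adjusted p = 0.021). Its relative CXXC5 fell in 6 and rose in NHSM-v, to 269 ± 13.6 from 176 ± 16.9 CPM. IDH2, a mitochondrial source of the 2-oxoglutarate that TET enzymes consume, rose in the 5 protocols in which TET2 did, by 0.74 to 1.13 on the log2 scale. Among 11 base excision repair genes, which act around or after TDG, 1 to 5 fell and 0 to 4 rose per comparison. Of all genes, 15.1% to 30.6% fell and 11.1% to 28.2% rose, by comparison. In E-NHSM 3 rose and 1 fell (11.1% and 15.1% of all genes), and in TL2i 1 rose and 4 fell (25.6% and 25.2%). The most that fell were 5, in NHSM-v (30.6%) and in TL-CDK8/19i (23.8%). With 11 genes these counts say little by themselves. The median log2 fold change of the list lay between -0.35 and 0.17. UNG fell in 6 protocols and was not called in TL-CDK8/19i, APEX1 fell in 5, and PARP1 fell in 6 and rose in E-NHSM (0.28, adjusted p = 0.0033). The glycosylase NEIL2 rose in 5, from 9.12 ± 2.73 CPM in primed to 33.4 ± 2.02 in E-NHSM, and was not called in NHSM-v and TL-CDK8/19i.

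Of 9 genes that make the methyl donor S-adenosylmethionine or recycle its product, 7 or 8 fell and 0 rose in each of the 5 protocols in which TET2 rose, where 25.2% to 30.6% of all genes fell, with a median log2 fold change between -0.48 and -1.08. In E-NHSM 2 rose and 2 fell (11.1% and 15.1% of all genes), and in TL-CDK8/19i 2 rose and 4 fell (22.3% and 23.8%). AHCY, which clears the inhibitory product of methylation, fell from 265 ± 29.4 CPM in primed libraries to between 108 and 183 CPM in the 5, and was called higher after E-NHSM (323 ± 24.5 CPM, edgeR adjusted p = 0.038) and after TL-CDK8/19i (328 ± 4.26, 0.036). SHMT1, of the folate cycle, fell in 5 protocols.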

How the data were processed

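The authors deposited raw counts of reads per gene symbol, made from directional mRNA libraries and single reads of 75 bp, with 1 column per library and no normalization or pooling. The submitters' processing notes name bcl2fastq, cutadapt, HISAT2, and HTSeq. The genome build, the annotation, and the strand setting of the counting are not given in the sources used here, so no positions are printed, and reads shared with pseudogenes or paralogs may have been split or dropped. Groups came from the labels, and 0 columns were left over. The 6 primed columns carry the letters J and K, which were not matched to the sets in the labels.

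Counts were analysed in R 4.3.3 with edgeR 4.0.16 (limma 3.58.1), namely TMM scaling, filterByExpr, and the quasi-likelihood test with Benjamini-Hochberg adjustment over all genes tested, fitted on the libraries of each comparison. SEs were derived from the F statistics. CPM and log2 CPM (prior count of 2) used TMM over all 27 libraries. All 8 genes passed the filter in every comparison. DESeq2 1.42.0 was an alternative. The procedure was tested on simulated data. The genes and lists were chosen with earlier results of these data known. Other genes are named where they passed the threshold in the same direction in at least 5 comparisons, up to 3 per direction and list by median fold change, beside DNMT3L, DPPA3, and PRDM14. USP7, ZBTB24, SOHLH2, and MAEL were chosen after their values were seen. Some genes that this rule names are not reported here.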

Additional observations from a re-analysis of the deposited data

How the results depend on the processing

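The number of the 8 genes called in each comparison stayed within 1.5 times its value under DESeq2, upper-quartile normalization, library totals without TMM (added after seeing the data), both other filters, one fit of all 8 groups, the primed columns of one letter, and each library left out. In this last case the counts ranged from 5 to 6 for E-NHSM, 6 to 7 for NHSM-v and t2iLGöY, and 4 to 5 for TL-CDK8/19i, and stayed at 6 for 4i/L/b, 5 for TL2i, and 7 for LCDM (EPS). Values of single genes that changed sign were all close to 0 and not called. DNMT1 in TL2i was 0.015 with DESeq2, 0.025 with upper-quartile normalization, 0.024 with the primed columns of letter K, 0.030 with at least 10 counts in every library, 0.11 without TMM, and -0.040 to 0.014 with a library left out. UHRF1 in TL2i was -0.0084 with the K columns and -0.023 to 0.11 with a library left out, and in t2iLGöY it was 0.013 with at least 10 counts in every library and 0.089 without TMM. TET3 in TL2i was -0.17 with the K columns and -0.076 to 0.17 with a library left out, TET3 in TL-CDK8/19i 0.0090 with the J columns, and TET1 in E-NHSM 0.024 with the J columns. Calls that depended on the setting for TET1, TET2, TET3, and DNMT3B stand beside those genes, except that TET3 was called higher in t2iLGöY with DESeq2 (0.47), at least 10 counts in every library (0.49), one fit of all groups (0.40), and without TMM (0.56), TET3 in NHSM-v with one fit of all groups (0.38), and TDG in TL-CDK8/19i with one fit of all groups (0.22). The cause was not tested. Without TMM the median of all genes rose by 0.12 in TL2i, 0.13 in t2iLGöY, and 0.12 in LCDM (EPS).

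The balance kept its sign and moved by less than the spread between libraries with a prior count of 0.5, other scalings, summed CPM, and each library left out. Without DNMT3B it was -0.79 in NHSM-v, -1.01 in 4i/L/b, -0.97 in TL2i, -1.35 in t2iLGöY, and -1.50 in LCDM (EPS). With DNMT1 and UHRF1 as the writers it was -1.03 in E-NHSM, 0.055 in NHSM-v, -0.28 in 4i/L/b, -0.20 in TL2i, -0.81 in t2iLGöY, -0.49 in LCDM (EPS), and -0.18 in TL-CDK8/19i, since other genes entered.

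For pairs of protocols, a replicate block gave 136 calls, as without it, and the same 136 tests. The replicate numbers did not pair the libraries, since none of the 63 same-numbered pairs correlated above 0.1 and 1 of 21 libraries correlated best with its own number. DESeq2 gave 136 calls, of which 134 were shared, one fit of all 8 groups 125, and leaving out a library 132 to 137. The lowest count of any of the 8 genes was 110, for TET2 in a primed library, and genes of the other lists, such as PRDM14 and DPPA3, rest on far fewer reads in some libraries. The floor of 3 counts per library covers counting error only, whereas SDs and SEs hold the spread between libraries.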

Other observations

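Germline genes that DNA methylation is known to silence were read as a further list. Of 12 such genes, DAZL, SYCP1, HORMAD1, STK31, TDRD1, TEX101, BRDT, and ASZ1 passed the filter on low counts in no comparison, and their highest count in any library was 31. Between 1 and 4 of the 12 were tested per comparison. SOHLH2, a transcription factor of early germ cells, was called higher in E-NHSM, at 9.36 ± 3.69 CPM against 2.10 ± 1.88 in primed libraries (log2 fold change 2.16, edgeR adjusted p = 0.044), and MAEL, of the piRNA pathway, held up to 131 counts and was called in none of the 5 comparisons in which it was tested. DPPA3 in E-NHSM was at 4.53 ± 1.97 against 0.686 ± 1.102 CPM in primed libraries and was not called by edgeR (adjusted p = 0.1).

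For each of the 8 genes, the 3 genes of most similar pattern were found by Pearson correlation of log2 CPM over the 8 group means, among 9913 genes whose log2 CPM averaged 3 or more. The points share the TMM scaling and the 6 primed libraries of one mean. DNMT3B was followed most closely by ZWILCH (0.994), MRPL16 (0.994), and TGS1 (0.992), with 526 genes above 0.9, and TET1 by C15H9orf85 (0.980), CNOT10 (0.972), and TGS1 (0.971), with 233 genes. TET2 was nearest to ARNT2 (0.989), ACAP3 (0.989), and FAM168A (0.989), with 423 genes. TDG was nearest to RNF213, PPP1R2, and ANOS1 (0.978 to 0.984), UHRF1 to UBR7, TFDP1, and TP53BP2 (0.957 to 0.977), TET3 to PFDN2, PI4K2B, and SLC36A1 (0.937 to 0.941), and DNMT3A to BAHD1, DISP1, and RQCD1 (0.927 to 0.944). DNMT1 stood most alone, with ZNF668 the single gene above 0.9 (0.901), before ERI1 and CHERP. Among the 8 themselves, over the same 8 means, DNMT3B and TET1 were at 0.953, DNMT3B and TET2 at -0.899, DNMT1 and UHRF1 at 0.808, and DNMT3B and TET3 at 0.061.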
